A study of Mus musculus with 12 samples.

Results

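Genes of glucose uptake, glycolysis, lactate handling and the response to low oxygen were examined in CD45.2+ CD8+ cells sorted from mouse tumours. A row of the gene table belonged to the set when its symbol was 1 of 39 listed symbols. These comprised 2 glucose transporters, 13 glycolytic enzymes, 5 genes of lactate and pyruvate fate, 2 PFKFB regulators, 4 genes of the hypoxia-inducible factor (HIF) and its control, 11 HIF targets outside glycolysis, and the 2 chains of the amino acid transporter LAT1. The symbols matched 40 of the 56980 rows, because Aldoa was carried by a main row and by a minor row with 0.167 to 0.748 counts per 1000000 (CPM). All 40 rows were among the 20411 that passed the filter on low counts. The libraries came from wild-type C57BL/6J mice bearing Panc02 tumours (a mouse pancreatic cancer cell line) or Flt3L-expressing Panc02 tumours, where Flt3L is a cytokine that expands dendritic cells. Live (DAPI-negative) cells positive for CD45.2 and CD8 were split by asialo-GM1 (asGM1), a surface glycolipid, into negative and positive gates, which gave 4 groups of 3 libraries. The study asked what asGM1 marks on these cells. The labels give no age, no driver of Flt3L and no T cell receptor marker in the sort, and do not tell whether replicates are separate mice, so p-values measure only the spread between these samples.

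Glycolysis splits glucose into pyruvate, which lactate dehydrogenase turns into lactate for export or which enters mitochondria. Activated, dividing T cells are known for taking up more glucose and running this pathway faster than resting T cells. HIF1 is a transcription factor whose alpha subunit, Hif1a, is marked for destruction by oxygen-dependent prolyl hydroxylases (Egln genes) and the Vhl ubiquitin ligase. When oxygen is low, or when T cell receptor and mTOR signals are strong, it raises transcripts of most glycolytic enzymes, of Slc2a1 and of genes such as Vegfa and Bnip3.

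Library totals ran from 98663008 to 102896605 deposited counts, and all levels below are CPM with TMM scaling. Cd8a stood at 1569 to 2562 CPM and Cd3e at 614 to 1412 CPM over the 12 libraries. The 10 T cell genes summed to 13050 to 16590 CPM in asGM1-positive cells of Flt3L Panc02 tumours and to 9586 to 12730 CPM in the other 9 libraries. Several libraries stood apart in the summed level of the 14 enzyme rows. Replicate 1 was the lowest library of both Panc02 groups, at 15540 and 16690 CPM against 20510 to 21810 in the other 4 Panc02 libraries. Replicate 2 of the Flt3L Panc02 asGM1-negative group was lowest of the 12, at 11230 CPM. Counts of called members and fits of selected members are therefore given also without single libraries. Group means, sums, sign shares and medians over members are given with all libraries only.

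Among the groups, asGM1-negative cells of Flt3L Panc02 tumours had the lowest level of most of these genes. Their group mean was the lowest of the 4 for 28 of the 40 rows (70%) and for 13 of the 14 enzyme rows (92.9%), against 31% of all genes tested. The summed enzyme level was 13760 ± 2400 CPM there (SD, n = 3), against 19630 ± 3430 in asGM1-positive cells of the same tumours. The Panc02 groups had 19500 ± 3450 (asGM1-negative) and 19660 ± 2650 CPM (asGM1-positive). Single libraries overlapped between groups. Replicate 1 of the Flt3L Panc02 asGM1-negative group (16010 CPM) was above replicate 2 of its asGM1-positive counterpart (15870) and Panc02 asGM1-negative replicate 1 (15540). The lowest Panc02 asGM1-positive library (16690 CPM) was above all 3 libraries of the Flt3L Panc02 asGM1-negative group. Ldhb, which encodes the lactate dehydrogenase subunit that favours the conversion of lactate to pyruvate, was the reverse and highest in that group. Few of the single differences passed the edgeR test.

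**Figure D1:**
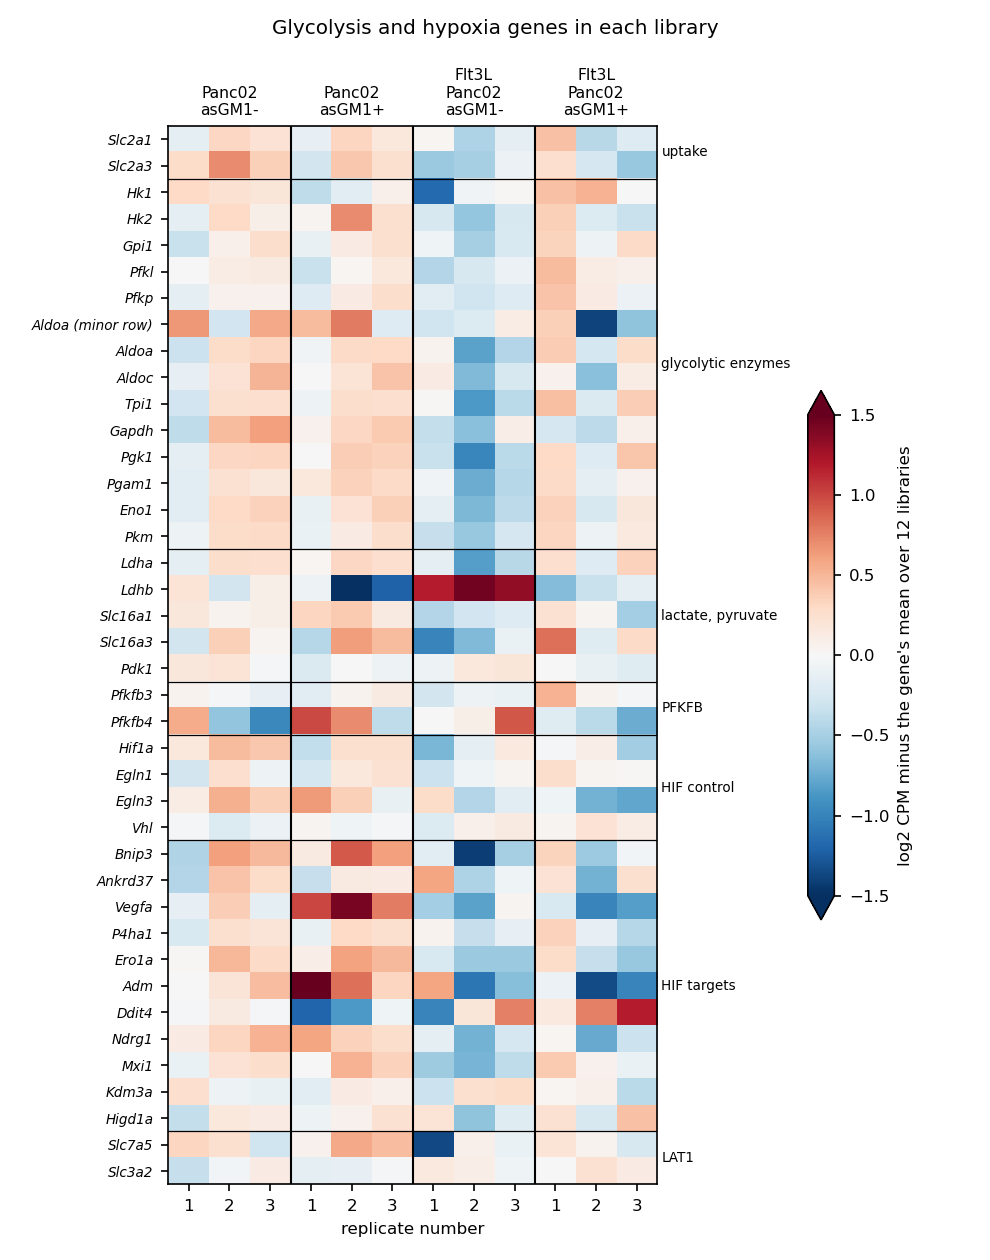
Level of each of the 40 rows in each of the 12 libraries, as log2 CPM minus the mean of that row over the 12 libraries (colour scale ends at -1.5 and 1.5, and values beyond it take the end colour). Columns are replicates 1 to 3 of the 4 groups and rows are ordered by role. Most enzyme rows are blue in the Flt3L Panc02 asGM1-negative columns, where Ldhb is red. Most enzyme rows have their lowest value in replicate 2 of that group.

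Each difference was tested in edgeR by quasi-likelihood, with p adjusted over 20411 genes after Benjamini and Hochberg, and a gene was called at an adjusted p under 0.05. Between the asGM1 gates of Panc02 tumours, 0 of 40 members were called, where 0.892% of all genes were. At an unadjusted p under 0.05 there were 2 of the 40, and 2040 of the 20411 genes tested. DESeq2 called 1 (2.89% of all genes) and limma-voom called 2 (4.07%). The 3 asGM1-positive libraries lay above all 3 asGM1-negative ones for 1 member and below them for 2, against 8.67% and 8.92% of all genes. Deviations of same-numbered libraries correlated in these tumours, so their numbers were taken as pairs. All 3 pairs were higher in asGM1-positive cells for 12 members (30%, against 19.8% of all genes), among them Ldha, Pgk1, Hk2 and Vegfa. All 3 were lower for 7 (17.5%, against 18.5%), among them Pkm, Hif1a, Slc2a3 and Ldhb, and edgeR with the pairs as a block called 0. Between the gates of Flt3L Panc02 tumours, 4 members were called (10%), 3 higher and 1 lower in asGM1-positive cells, against 8.59% of all genes. DESeq2 called 7 (15.8% of all genes) and limma-voom 6 (13.7%), each with Ldhb alone lower. The edgeR share was near its background, although 2.77% of all genes were called higher and 5.83% lower. The estimated difference was above 0 for 31 of 40 members (77.5%, against 48.9% of all genes), with a median of 0.26 on the log2 scale against -0.01 over all genes. No overlap between the gates occurred for 6 higher and 2 lower members (15% and 5%), against 11.4% and 17.3% of all genes. Called members numbered 1 without replicate 2 or 3 of the asGM1-negative group or replicate 1 of the asGM1-positive group, and 2 without replicate 3 of the latter, fits in which 3.63 to 5.28% of all genes were called.

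Between tumour types, 1 of 40 members was called in asGM1-negative cells, a higher one, against 3.7% of all genes in either direction and 1.86% called higher. DESeq2 called 8 (10.9% of all genes), Ldhb higher and Pkm, Ldha, Mxi1, Ndrg1, Ero1a, Pgk1 and Slc2a3 lower. limma-voom called 15 (17.3% of all genes), 2 higher and 13 lower, among which were those 7. In edgeR fits without 1 library 0 or 1 member was called, and the fits with 0 called 0.442 to 1.41% of all genes. In the edgeR fit 34 of 40 members (85%) and all 14 enzyme rows had estimates below 0, that is, lower in Flt3L Panc02 tumours, against 49.8% of all genes. The median log2 difference was -0.44 for the members and -0.47 for the enzymes, against 0.00 over all genes. In 13 members (32.5%) all 3 Flt3L Panc02 libraries lay below all 3 Panc02 libraries, which held for 12.9% of all genes, and in 1 member they lay above them, against 13.8%. In asGM1-positive cells 1 of 40 was called, a lower one, against 6.25% of all genes in either direction and 4.2% called lower. DESeq2 called 5 (14.6% of all genes), 1 higher and 4 lower, and limma-voom 7 (15.3%), 2 higher and 5 lower. edgeR called 0 with the compared libraries only, a fit in which 0.00538% of all genes were called. With 1 library left out it called 0 to 4. The 0 came without Flt3L Panc02 replicate 2 or 3 (1.01% and 1.23% of all genes called). The 4 came without Flt3L Panc02 replicate 1 (5.77%) or Panc02 replicate 3 (8.16%). The members' median in asGM1-positive cells was -0.08, and 3 higher and 3 lower members had no overlap, against 14.2% and 16.5% of all genes. All 4 comparisons reuse groups, since each group enters 2 of them, so a low group such as the asGM1-negative Flt3L Panc02 cells enters both the gate and the tumour comparison.

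The difference between the 2 gate effects (interaction) was called for 0 of 40 members, against 0.367% of all genes. At an unadjusted p under 0.05 there were 6 of the 40 members, and 3030 of the 20411 genes tested. DESeq2 called Vegfa (-1.29, adjusted p = 0.0469, where 4.23% of all genes were called), and limma-voom called Vegfa and Pfkfb4 (3.85% of all genes). The members' median estimate was 0.16 (log2), against -0.02 over all genes. A value above 0 is a gate difference that was more positive or less negative in Flt3L Panc02 than in Panc02 tumours. The estimate was above 0 for 32 of 40 members (80%, against 48.4% of all genes). It was 0.68 ± 0.29 for Pgk1, 0.59 ± 0.21 for Pkm and -1.30 ± 0.40 for Vegfa (log2, SE; edgeR adjusted p 0.308, 0.224 and 0.182). For Pgk1, Pkm, Mxi1 and Ldhb, called between the gates of Flt3L Panc02 tumours, none of the 3 tools called the interaction in fits without a block. edgeR with same-numbered libraries as a block called that of Pgk1 (0.68 ± 0.11, adjusted p = 0.0432, where 0.999% of all genes were called). A difference in gate effect between the tumour types thus depended on the setting for Pgk1 and is not shown for Pkm, Mxi1 and Ldhb.

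**Figure D2:**
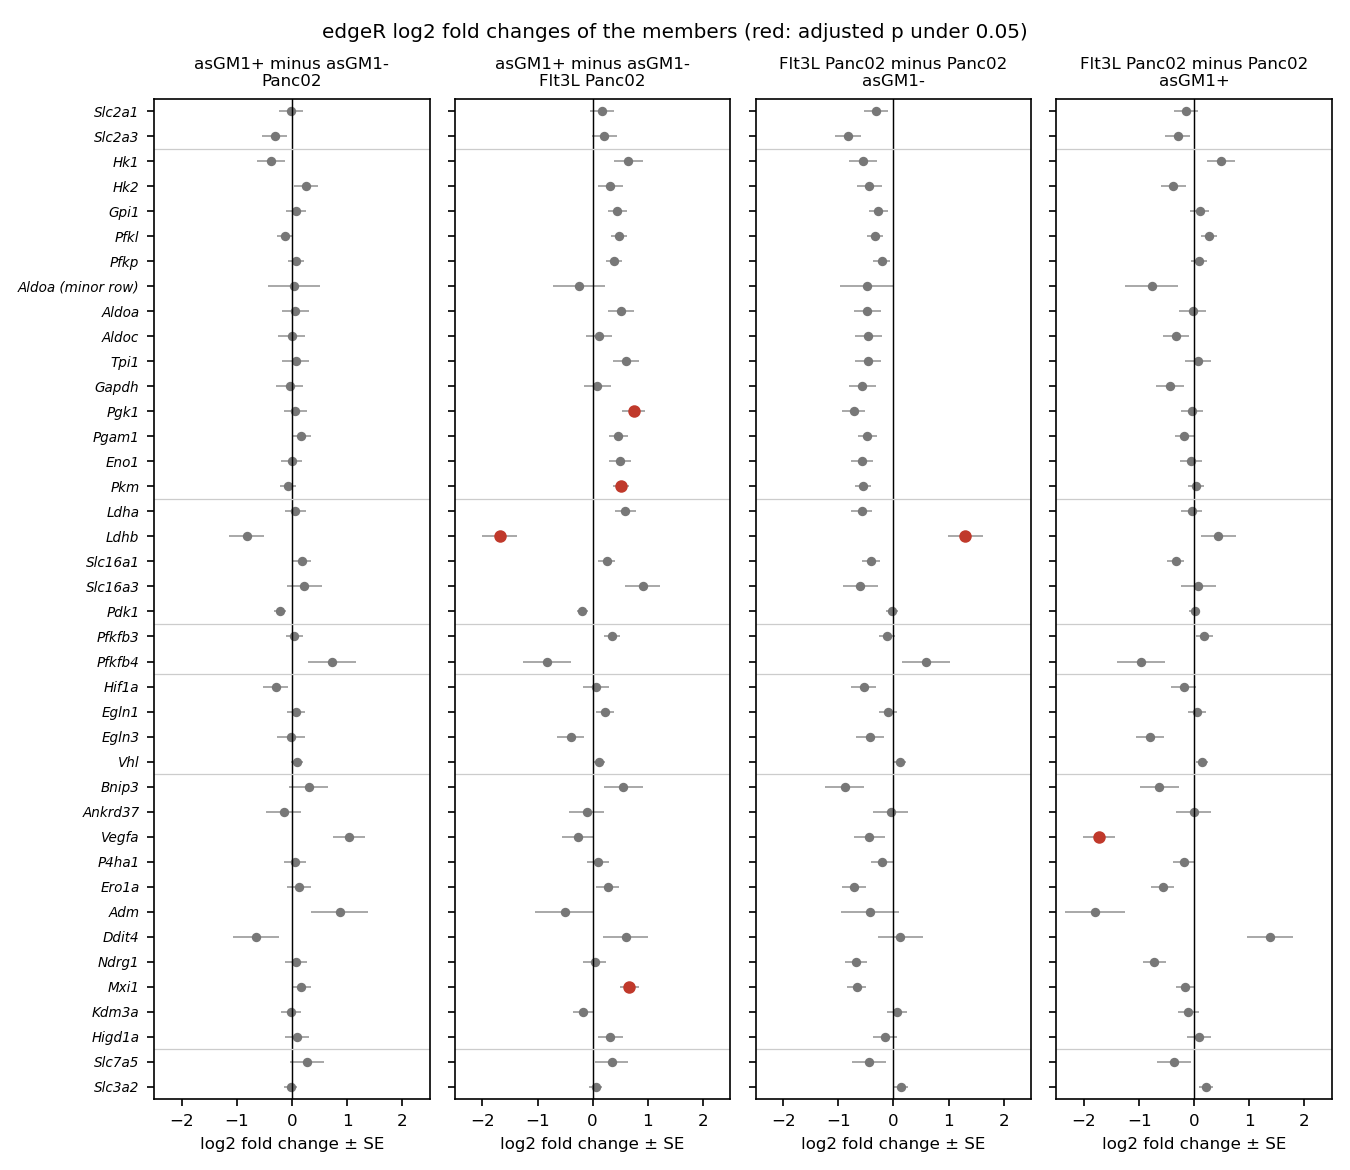
edgeR log2 fold change ± SE of each of the 40 rows in the gate comparison of each tumour type (asGM1-positive minus asGM1-negative) and the tumour comparison of each gate (Flt3L Panc02 minus Panc02), 3 libraries against 3. Red points passed an adjusted p of 0.05: Pgk1, Pkm, Mxi1 and Ldhb in the Flt3L Panc02 gate comparison, Ldhb in asGM1-negative cells and Vegfa in asGM1-positive cells.

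Markers of other cell kinds and of T cell states differed between these groups. Siglech, a defining receptor of plasmacytoid dendritic cells, stood at 252.9 to 289.9 CPM in asGM1-negative cells of Flt3L Panc02 tumours, 40.4 to 70.1 CPM in those of Panc02 tumours and 0.0901 to 4.56 CPM in the asGM1-positive libraries. The 11 plasmacytoid dendritic cell genes summed to 1688 to 1834 CPM in the Flt3L Panc02 asGM1-negative group and to 755.7 to 1128 CPM in the other 9 libraries, and 7 of the 11 were called lower in asGM1-positive cells in each gate comparison. The 8 naive and stem-like T cell genes summed to 1334 to 1608 CPM in that group, 388.8 to 551.8 CPM in its asGM1-positive counterpart, and 682.1 to 735 and 182 to 225.3 CPM in the asGM1-negative and asGM1-positive Panc02 groups. Cell cycle genes went the other way. Their sum was 2496 to 3035 CPM in the Flt3L Panc02 asGM1-negative group and 3625 to 4770 CPM in the other 9 libraries, with 9 of 18 called higher in asGM1-positive cells of Flt3L Panc02 tumours and 11 of 18 called lower in asGM1-negative cells of those tumours than of Panc02 tumours. T cell genes were higher in asGM1-positive than asGM1-negative cells of Flt3L Panc02 tumours in all 10 estimates (2 called, 9 without overlap), as the enzymes mostly were, and 5 of 10 were called higher in asGM1-positive cells of Flt3L Panc02 than of Panc02 tumours. Conventional dendritic cell genes summed to 596.8 to 675.1 CPM in the Flt3L Panc02 asGM1-negative group and 101.1 to 375.4 CPM elsewhere, with 7 of 10 called lower in the asGM1-positive gate of these tumours. B and plasma cell genes summed to 624.5 to 739.8 against 202.9 to 470 CPM, with 3 of 5 called lower there. Red cell genes were almost absent from that group, at 0.111 to 0.7086 CPM against 3.359 to 31.35 CPM elsewhere. Of these 5 genes 4 were called higher in asGM1-positive cells, 4 lower between tumours in asGM1-negative cells, and 2 in the interaction. The part of these cells and states in the results on glycolysis was not tested, and in bulk samples fewer cells of a type and less RNA per cell cannot be told apart.

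Myeloid, tumour and stromal genes differed between tumour types and among the libraries of the Panc02 asGM1-positive group. In asGM1-positive cells edgeR called 5 of 16 macrophage and monocyte genes lower in Flt3L Panc02 tumours (31.2%, against 6.25% of all genes called). Of the 16, 15 had an unadjusted p under 0.05, as had 4973 of the 20411 genes tested. In each gate 2 of 9 fibroblast genes were called lower, and 2 of 6 tumour epithelial genes lower and 1 higher. The 16 macrophage and monocyte genes summed to 910.8 to 3307 CPM there, with the most in replicate 1, and to 388.3 to 1302 CPM in the other groups. Csf1r, the macrophage growth factor receptor, ranged from 13.3 to 102 CPM, S100a8, a neutrophil gene, from 0.268 to 2.31 CPM, and Col1a1, a collagen of fibroblasts, from 0.548 to 21.6 CPM. Krt18, a keratin of the tumour cells, stood at 9.11 to 30.7 CPM in Panc02 libraries and 1.29 to 3.04 CPM in Flt3L Panc02 libraries. None of these defining genes was at 0 in any library.

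**Figure D3:**
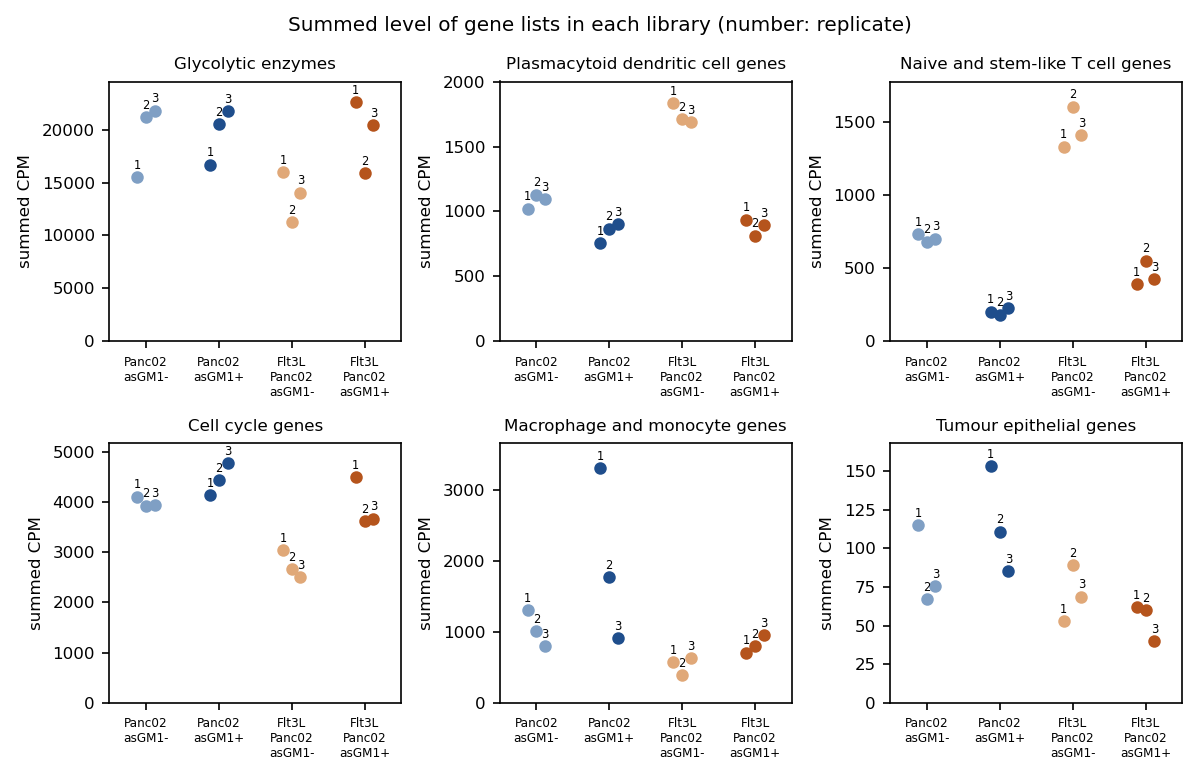
Summed CPM of the 14 glycolytic enzyme rows and of 5 marker lists in each library (points, numbered by replicate) for the 4 groups. The 3 Flt3L Panc02 asGM1-negative libraries are highest for plasmacytoid dendritic cell and naive or stem-like genes and lowest for cell cycle genes. Replicate 1 is the lowest Panc02 library for the enzymes and the highest for macrophage genes in both Panc02 groups.

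Among the enzymes, asGM1-positive cells of Flt3L Panc02 tumours had called increases of Pgk1 and Pkm over their asGM1-negative counterparts. Pgk1, phosphoglycerate kinase, catalyses the first step of glycolysis that yields ATP. Its level was 662, 423 and 629 CPM in the 3 asGM1-negative libraries of Flt3L Panc02 tumours and 1026, 729 and 1114 CPM in the 3 asGM1-positive ones. In Panc02 tumours it was 753, 1033 and 1042 CPM (asGM1-negative) and 827, 1072 and 1054 CPM (asGM1-positive). The 3 libraries of the Flt3L Panc02 asGM1-negative group thus lay below all other 9. The gate difference in Flt3L Panc02 tumours was 0.74 ± 0.21 (log2, SE; 1.67-fold; edgeR adjusted p = 0.048), and that between tumours in asGM1-negative cells was -0.72 ± 0.21 (edgeR adjusted p = 0.0788, DESeq2 0.0131, limma-voom 0.012). The gate call was lost in 4 of 6 fits that each left out 1 library: edgeR adjusted p was 0.16 without asGM1-negative replicate 2, 0.0826 without replicate 3, 0.118 without asGM1-positive replicate 1 and 0.15 without replicate 3.

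Pkm, pyruvate kinase, makes pyruvate in the last step of glycolysis. It stood at 2952, 2542 and 3156 CPM in the asGM1-negative and 4687, 3571 and 4149 CPM in the asGM1-positive libraries of Flt3L Panc02 tumours. In Panc02 tumours it stood at 3551, 4529 and 4597 CPM (asGM1-negative) and 3515, 4086 and 4499 CPM (asGM1-positive). Again the 3 lowest libraries were the asGM1-negative ones of Flt3L Panc02 tumours. The gate difference there was 0.52 ± 0.15 (log2, SE; 1.43-fold; edgeR adjusted p = 0.0481), and it passed the test in only 1 of the 6 fits without 1 library (adjusted p 0.0464 without asGM1-positive replicate 2, 0.0725 to 0.169 in the other 5). In Panc02 tumours the gate difference was -0.07 ± 0.15 (edgeR adjusted p = 0.963), and between tumours it was -0.55 ± 0.15 in asGM1-negative cells (edgeR adjusted p = 0.0595, DESeq2 0.00685, limma-voom 0.00997).

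The promoter sequences of the called enzymes, of the pair Ldha and Ldhb, and of Mxi1 are shown because HIF binds the core motifs ACGTG and GCGTG in hypoxia response elements. They are the 250 bases before a transcription start in RefSeq on GRCm38.p6, an older build than the mm39 of the counts, written 5′ to 3′ on the gene's strand. Capitals mark each ACGTG or GCGTG on either strand (read as CACGT or CACGC on the other). Where RefSeq listed several starts, the start with the most matches is shown. Pgk1 lies at chrX:106186850-106187099 (+ strand), Pkm at chr9:59656977-59657226 (+), Ldha at chr7:46845554-46845803 (+), Ldhb at chr6:142507958-142508207 (- strand) and Mxi1 at chr19:53329163-53329412 (+).
Pgk1: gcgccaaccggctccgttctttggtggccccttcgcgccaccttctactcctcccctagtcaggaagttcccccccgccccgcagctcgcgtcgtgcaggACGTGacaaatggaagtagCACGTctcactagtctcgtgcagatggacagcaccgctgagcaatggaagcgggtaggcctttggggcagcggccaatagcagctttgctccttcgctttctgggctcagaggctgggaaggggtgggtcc
Pkm: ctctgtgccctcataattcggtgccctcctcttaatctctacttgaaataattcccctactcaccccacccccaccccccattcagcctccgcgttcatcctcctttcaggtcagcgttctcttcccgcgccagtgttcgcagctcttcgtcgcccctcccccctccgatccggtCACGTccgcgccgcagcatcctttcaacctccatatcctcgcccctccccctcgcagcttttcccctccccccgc
Ldha: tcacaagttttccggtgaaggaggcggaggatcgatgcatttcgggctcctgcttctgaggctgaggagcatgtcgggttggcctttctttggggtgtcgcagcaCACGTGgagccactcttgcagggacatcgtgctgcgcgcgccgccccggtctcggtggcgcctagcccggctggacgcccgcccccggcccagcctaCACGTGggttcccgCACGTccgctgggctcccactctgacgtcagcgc
Ldhb: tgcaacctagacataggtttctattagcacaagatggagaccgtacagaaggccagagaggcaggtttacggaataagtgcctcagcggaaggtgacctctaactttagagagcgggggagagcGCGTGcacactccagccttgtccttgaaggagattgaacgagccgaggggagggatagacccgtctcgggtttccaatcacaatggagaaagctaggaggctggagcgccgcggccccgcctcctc
Mxi1: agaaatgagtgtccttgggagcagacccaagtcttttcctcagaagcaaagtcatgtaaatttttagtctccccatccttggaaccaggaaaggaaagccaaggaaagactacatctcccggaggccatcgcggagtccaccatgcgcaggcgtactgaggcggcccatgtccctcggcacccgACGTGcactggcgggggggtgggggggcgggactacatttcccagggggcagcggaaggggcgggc
ACGTG matched 5 times in the Ldha window, 2 times in that of Pgk1, 1 time each in those of Pkm and Mxi1 and 0 times in that of Ldhb, which held 1 GCGTG. In Ldha, 4 of the 5 matches were the 2 strands of 2 CACGTG palindromes, a motif that MYC also binds.

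Over windows from 250 bases before to 50 bases after each start, 36 of the 39 symbols had an entry, and Slc2a3, Ndrg1 and Slc7a5 were not matched. ACGTG occurred on either strand in 25 of the 36 (69.4%), against 28% of the 12155 tested genes with a window and 21.8% of all 27025 genes. Among enzymes 8 of 13 (61.5%) had it. GCGTG occurred in 24 of 36 (66.7%) against 52.1% of tested genes, and CACGTG, which contains ACGTG on both strands, in 5 of 36 (13.9%) against 11%. The list was drawn up partly from textbook HIF targets, and a match is a run of letters, not a binding site.

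**Figure D4:**
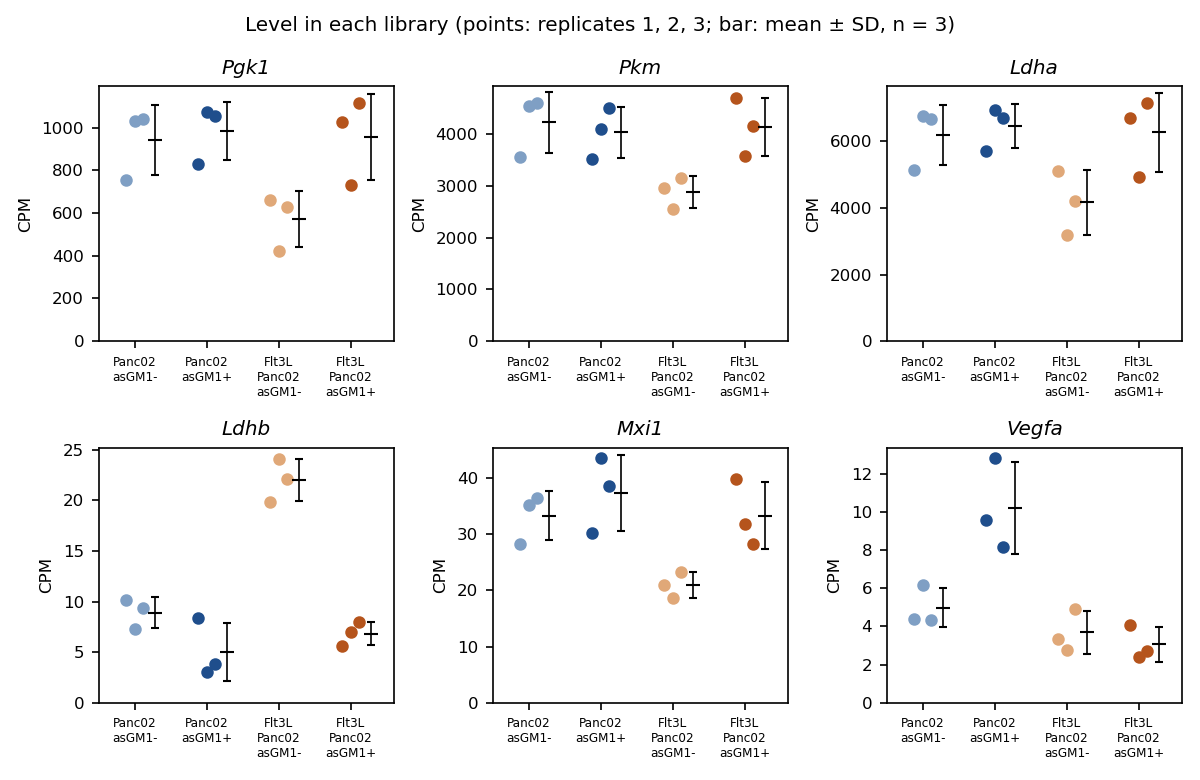
CPM of Pgk1, Pkm, Ldha, Ldhb, Mxi1 and Vegfa in each library (points, replicates 1 to 3 from left to right) with the group mean ± SD (n = 3), on axes from 0. For Pgk1, Pkm and Mxi1 the 3 Flt3L Panc02 asGM1-negative libraries lie below every other library, for Ldhb they lie above all others, and for Vegfa the 3 Panc02 asGM1-positive libraries are highest.

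In Flt3L Panc02 tumours 13 of the 14 enzyme rows (92.9%) had a higher estimate in asGM1-positive cells, against 48.9% of all genes. The exception was the minor Aldoa row, at -0.25. The enzymes' median was 0.47 (log2). edgeR called 2 (14.3%), both higher, against 8.59% of all genes in either direction and 2.77% called higher. Phosphofructokinase subunits Pfkl and Pfkp, which carry out the committed step, had no overlap between the gates, at 249 to 317 against 357 to 469 CPM and at 572 to 631 against 664 to 949.6 CPM (edgeR adjusted p 0.0672 and 0.125). DESeq2 called Pfkl (adjusted p = 0.018), and limma-voom called Pfkp (0.039) and the phosphoglycerate mutase Pgam1 (0.0328). In Panc02 tumours the enzymes' median gate difference was 0.05. Between tumours in asGM1-negative cells the 14 estimates ran below 0 throughout, against 49.8% of all genes. In 6 rows (42.9%) all Flt3L Panc02 libraries lay below all Panc02 ones, against 12.9% of all genes.

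Hexokinases trap glucose in the cell as glucose 6-phosphate, and Hk2 is the isoform known to be induced by HIF1 and T cell activation. Hk2 stood at 13.2, 18.1 and 15.5 CPM (asGM1-negative) and 15, 23.8 and 17.3 CPM (asGM1-positive) in Panc02 tumours. In Flt3L Panc02 tumours it stood at 12.4, 9.82 and 12.4 CPM (asGM1-negative) and 18.8, 12.7 and 11.64 CPM (asGM1-positive). The gates overlapped in both tumour types, with differences of 0.26 ± 0.22 and 0.32 ± 0.22 (log2, SE; edgeR adjusted p 0.814 and 0.398). Between tumours all asGM1-negative Flt3L Panc02 libraries were below the Panc02 ones, at -0.44 ± 0.22 (edgeR adjusted p = 0.299), and the asGM1-positive difference was -0.38 ± 0.22 (adjusted p = 0.323). Hk1, the constitutive isoform, was more abundant per exon length, at 24.2 CPM per kb against 2.52 for Hk2 as means over the groups.

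Gapdh, which oxidises glyceraldehyde 3-phosphate and is often used as a reference gene, had 184, 332 and 368 CPM (asGM1-negative) and 251, 297 and 314 CPM (asGM1-positive) in Panc02 tumours. Its levels in Flt3L Panc02 tumours were 187, 156 and 256 CPM (asGM1-negative) and 201, 182.5 and 252.5 CPM (asGM1-positive). The groups overlapped in all 4 comparisons, whose differences were -0.04, 0.09, -0.56 and -0.44 in the order of the fold change plot, with SE 0.25 (edgeR adjusted p 0.993, 0.868, 0.229 and 0.306). Its level is uncertain, because the processed pseudogene Gapdh-ps15 held 38 to 82.6% as many counts as Gapdh, and its gate difference in Flt3L Panc02 tumours was 0.53 ± 0.22 (edgeR adjusted p = 0.159). Near copies of other members were smaller, at 14 to 15.7% for Pgam1-ps2, 6.53 to 7.13% for Eno1b, 3.67 to 4.27% for Pgk1-rs7 and under 1% for Ldha-ps2 and Tpi-rs11. How reads were divided among these copies is not given in the sources used here.

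Glucose enters T cells through Slc2a1 (GLUT1) and Slc2a3 (GLUT3). Slc2a1 stood at 159.8, 217.5 and 203 CPM (asGM1-negative) and 161, 219.6 and 196 CPM (asGM1-positive) in Panc02 tumours. Its levels in Flt3L Panc02 tumours were 178.5, 127 and 159 CPM (asGM1-negative) and 238, 131 and 153 CPM (asGM1-positive). All groups overlapped, and no difference was beyond 0.32 in size (gate -0.01 ± 0.22 and 0.17 ± 0.22, tumour -0.32 ± 0.22 and -0.14 ± 0.22; edgeR adjusted p 0.458 to 0.999). Slc2a3 stood at 170, 231 and 181 CPM (asGM1-negative) and 116, 186 and 166 CPM (asGM1-positive) in Panc02 tumours. In Flt3L Panc02 tumours it stood at 96, 99.6 and 133 CPM (asGM1-negative) and 167, 118 and 94.7 CPM (asGM1-positive). In asGM1-negative cells the Flt3L Panc02 libraries were all below the Panc02 ones, at -0.82 ± 0.23, which missed the edgeR threshold (adjusted p 0.0717; 0.00893 with DESeq2 and 0.0236 with limma-voom). The other 3 differences lay between -0.31 and 0.21 (edgeR adjusted p 0.457 to 0.759).

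Lactate dehydrogenase showed opposite patterns in its 2 subunit genes. Ldhb was called lower in asGM1-positive than asGM1-negative cells of Flt3L Panc02 tumours and higher in asGM1-negative cells of Flt3L Panc02 than of Panc02 tumours. It stood at 19.9, 24.1 and 22.2 CPM (asGM1-negative) and 5.6, 6.95 and 7.96 CPM (asGM1-positive) in Flt3L Panc02 tumours. In Panc02 tumours it stood at 10.1, 7.25 and 9.37 CPM (asGM1-negative) and 8.32, 3 and 3.79 CPM (asGM1-positive). The 3 asGM1-negative libraries of Flt3L Panc02 tumours were thus each above all other 9. They were also the libraries with the highest plasmacytoid dendritic cell and naive or stem-like sums, whose part in the Ldhb result was not tested. The gate difference there was -1.69 ± 0.32 (log2, SE; edgeR adjusted p = 0.00915), and it was called in all 6 fits without 1 library (adjusted p 0.0165 to 0.0414). The tumour difference in asGM1-negative cells was 1.31 ± 0.32 (2.47-fold; edgeR adjusted p = 0.0467), and it missed the threshold in each of the 6 such fits (adjusted p 0.056 to 0.175). In Panc02 tumours the gate difference was -0.82 ± 0.32 (edgeR adjusted p = 0.387), which limma-voom called (-1.12, adjusted p = 0.0369). It was -1.39 with an edgeR adjusted p of 0.0141 without asGM1-positive replicate 1. The interaction was -0.87 ± 0.45 (edgeR adjusted p = 0.389).

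Ldha, the subunit that favours lactate formation, was the most abundant member per exon length, at 1740 CPM per kb. It stood at 5140, 6758 and 6677 CPM (asGM1-negative) and 5719, 6947 and 6709 CPM (asGM1-positive) in Panc02 tumours. In Flt3L Panc02 tumours it stood at 5109, 3180 and 4207 CPM (asGM1-negative) and 6707, 4932 and 7166 CPM (asGM1-positive). The last 2 groups overlapped, since replicate 2 of the asGM1-positive group was below replicate 1 of the asGM1-negative group. The difference was 0.59 ± 0.19 (log2, SE; edgeR adjusted p = 0.0793, DESeq2 0.0207, limma-voom 0.0448), and in edgeR it passed without asGM1-negative replicate 1 (adjusted p = 0.0373). In asGM1-negative cells the tumour difference was -0.57 ± 0.19 with no overlap (edgeR adjusted p = 0.118, DESeq2 0.0391, limma-voom 0.00984).

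The balance of genes that do the same step was compared within libraries, which removes library scaling. The ratio of Ldha to Ldhb CPM was 132 to 257 in asGM1-negative cells of Flt3L Panc02 tumours, 710 to 1200 in their asGM1-positive cells, 508 to 932 in asGM1-negative and 687 to 2310 in asGM1-positive cells of Panc02 tumours. The mean gate difference of its log2 was 1.64 (1.002 in Panc02 and 2.28 in Flt3L Panc02 tumours; two-sided exact permutation p = 0.015, 0.1 after Benjamini-Hochberg adjustment over 12 tests). The mean tumour difference was -1.25 (exact permutation p = 0.02, adjusted 0.1). Aldoa to Aldoc differed by 0.25 between gates (exact permutation p = 0.025, adjusted 0.1) and Slc2a1 to Slc2a3 by 0.32 between tumours (exact permutation p = 0.045, adjusted 0.135). Hk2 to Hk1, Pfkp to Pfkl and Slc16a3 to Slc16a1 had exact permutation p of 0.265 to 0.765. None of the 12 passed adjustment, and the smallest p the 400 label arrangements can give is 0.005.

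edgeR called none of the remaining genes of lactate and pyruvate. The monocarboxylate transporter Slc16a3 (MCT4), which exports lactate, ranged from 45.2 to 83.6 CPM in asGM1-negative and 79 to 158.8 CPM in asGM1-positive cells of Flt3L Panc02 tumours, a difference of 0.91 ± 0.32 (log2, SE; edgeR adjusted p = 0.108), which DESeq2 called (adjusted p = 0.0317). Slc16a1 (MCT1) ranged from 51.2 to 96 CPM over all libraries. Pdk1, a kinase that keeps pyruvate out of mitochondria, differed little between groups, at 60.6 to 80.9 CPM. Of the PFKFB enzymes, which set the level of a phosphofructokinase activator, Pfkfb3 had no overlap between the gates of Flt3L Panc02 tumours (21.7 to 24.8 against 25.8 to 37.6 CPM; 0.35 ± 0.15, edgeR adjusted p = 0.172). Pfkfb4 stood at 4.63 to 8.74 CPM in asGM1-negative and 2.74 to 4.07 CPM in asGM1-positive cells of those tumours, the opposite order (-0.83 ± 0.44, edgeR adjusted p = 0.261). limma-voom called Pfkfb4 higher in asGM1-negative cells of Flt3L Panc02 than of Panc02 tumours (1.16, adjusted p = 0.0444).

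Hif1a itself was not called in any comparison. It stood at 165.5, 206 and 196 CPM (asGM1-negative) and 115, 174 and 175 CPM (asGM1-positive) in Panc02 tumours. In Flt3L Panc02 tumours it stood at 91.7, 134 and 164 CPM (asGM1-negative) and 145, 158 and 103 CPM (asGM1-positive). The Flt3L Panc02 asGM1-negative libraries were below the Panc02 ones, at -0.54 ± 0.23 (log2, SE; edgeR adjusted p = 0.212), and the gate differences were -0.29 ± 0.23 and 0.06 ± 0.23 (adjusted p 0.789 and 0.906). HIF1 is controlled largely through its protein, which these data do not measure. Of its regulators, Vhl ranged from 30 to 40.2 CPM and Egln1 from 77 to 115.5 CPM. Egln3, itself a HIF target, was 17.4 to 29.1 CPM in Panc02 and 10.9 to 17.9 CPM in Flt3L Panc02 asGM1-positive cells, which overlapped (-0.81 ± 0.25, edgeR adjusted p = 0.0784, DESeq2 0.0203, limma-voom 0.0209).

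Vegfa, the vascular growth factor and a textbook HIF target, was called lower in asGM1-positive cells of Flt3L Panc02 than of Panc02 tumours. It stood at 9.58, 12.9 and 8.19 CPM in asGM1-positive cells of Panc02 tumours and 4.1, 2.4 and 2.693 CPM in those of Flt3L Panc02 tumours. In asGM1-negative cells it stood at 4.42, 6.19 and 4.36 CPM in Panc02 and 3.37, 2.75 and 4.94 CPM in Flt3L Panc02 tumours. The Panc02 asGM1-positive libraries were the 3 highest of the 12. The tumour difference was -1.74 ± 0.29 (log2, SE; edgeR adjusted p = 0.00947), and it missed the threshold without Flt3L Panc02 asGM1-positive replicate 2 (adjusted p = 0.0511) or 3 (0.0513). In Panc02 tumours asGM1-positive cells were above asGM1-negative cells without overlap, by 1.03 ± 0.29 (edgeR adjusted p = 0.17; 0.0199 with DESeq2 and 0.0238 with limma-voom). The same Panc02 asGM1-positive group held the highest macrophage and monocyte sum, and Krt18 also fell with Vegfa between tumours (-3.00 ± 0.38, edgeR adjusted p = 0.00497). Their part in the Vegfa result was not tested.

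Mxi1, a MAX partner that opposes MYC and is induced by HIF1, was called higher in asGM1-positive cells of Flt3L Panc02 tumours. It stood at 21, 18.7 and 23.4 CPM in their asGM1-negative and 39.9, 31.8 and 28.3 CPM in their asGM1-positive cells. In Panc02 tumours it stood at 28.3, 35.2 and 36.4 CPM (asGM1-negative) and 30.2, 43.6 and 38.6 CPM (asGM1-positive). All 3 asGM1-negative Flt3L Panc02 libraries were below the other 9. The gate difference was 0.67 ± 0.17 (log2, SE; 1.59-fold; edgeR adjusted p = 0.0363), and it passed in 1 of 6 fits without 1 library (adjusted p 0.0402 without asGM1-positive replicate 3, 0.0573 to 0.133 otherwise). The tumour difference in asGM1-negative cells was -0.66 ± 0.17 (edgeR adjusted p = 0.0565, DESeq2 0.00536, limma-voom 0.0156).

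edgeR called the other 9 HIF targets outside glycolysis in no comparison, but DESeq2 or limma-voom called 5 of them between tumour types. Ndrg1, a stress gene, was lower in Flt3L Panc02 libraries without overlap in both gates, at 86.7 to 114.3 against 48.9 to 72.1 CPM in asGM1-negative and 96.1 to 120.4 against 47.1 to 81.5 CPM in asGM1-positive cells (-0.68 ± 0.20 and -0.72 ± 0.20; edgeR adjusted p 0.0862 and 0.0567, DESeq2 0.0182 and 0.0103, limma-voom 0.0186 and 0.0156). Ero1a, which forms disulfide bonds in the endoplasmic reticulum, was 84.5 to 118.5 against 56.9 to 71.4 CPM in asGM1-negative cells (-0.72 ± 0.22, edgeR adjusted p = 0.0887, DESeq2 0.0172, limma-voom 0.00718). Bnip3, a mitophagy receptor, ranged from 34.6 CPM to 174.2 CPM with overlapping groups, and limma-voom called it lower in asGM1-negative cells of Flt3L Panc02 tumours (-1.09, adjusted p = 0.033). Ddit4, an inhibitor of mTORC1, went the other way in asGM1-positive cells, at 3.21 to 7.02 CPM in Panc02 and 8.07 to 16.6 CPM in Flt3L Panc02 tumours (1.38 ± 0.42, edgeR adjusted p = 0.0707, DESeq2 0.00894, limma-voom 0.0183). Adm, a vasodilator peptide gene, was scarce, at 0.209 to 1.8 CPM, and its tumour difference in asGM1-positive cells was -1.80 ± 0.54 (edgeR adjusted p = 0.0678, DESeq2 0.0188, limma-voom 0.0284). P4ha1, a collagen prolyl hydroxylase subunit, Kdm3a, a histone demethylase, Higd1a, a mitochondrial protein, and Ankrd37 ranged from 50.6 to 86.7, 28.9 to 46.5, 76.8 to 157 and 12.3 to 30.4 CPM.

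LAT1 imports leucine and other large amino acids that mTORC1 senses, and pairs the carrier Slc7a5 with the chaperone Slc3a2. Slc7a5 stood at 84, 79.5 and 54.8 CPM (asGM1-negative) and 70.7, 99.9 and 92.6 CPM (asGM1-positive) in Panc02 tumours. In Flt3L Panc02 tumours it stood at 26.5, 71.3 and 63 CPM (asGM1-negative) and 77.4, 69.9 and 56.9 CPM (asGM1-positive). The lowest value, in asGM1-negative replicate 1, stood apart, and the groups overlapped in all 4 comparisons. The differences were 0.27 ± 0.30, 0.35 ± 0.30, -0.44 ± 0.30 and -0.37 ± 0.30 (log2, SE; edgeR adjusted p 0.467 to 0.887). Slc3a2 stayed within 267 to 398 CPM.

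Genes of linked pathways were listed apart from the members, and in the Flt3L Panc02 gate comparison their calls stand against 8.59% of all genes. Of 15 pentose phosphate and one-carbon genes, 6 (40%) were called higher in asGM1-positive cells and 0 lower, among them Psat1 of serine synthesis (0.55 ± 0.10, edgeR adjusted p = 0.00719), the transketolase Tkt (0.49 ± 0.10, adjusted p = 0.0119) and Shmt1 (0.59 ± 0.14, adjusted p = 0.0228). The 21 genes of pyruvate entry and the TCA cycle included Mdh2, the mitochondrial malate dehydrogenase, which was higher (0.39 ± 0.11, edgeR adjusted p = 0.0437). Of 16 genes of the ATF4 response, 2 (12.5%) were higher, and Asns, which makes asparagine, had the smaller p (1.20 ± 0.23, edgeR adjusted p = 0.00877). Of 17 MYC and mTORC1 genes (5.88%) Akt1 alone was higher (0.48 ± 0.13, edgeR adjusted p = 0.0435), and of 11 other amino acid transporters (9.09%) Slc38a9 alone was lower (-0.60 ± 0.15, adjusted p = 0.0291). Between tumours these 5 lists, with 80 genes tested, had 4 called lower in asGM1-negative cells (3.7% of all genes called), among them Asns (-1.40 ± 0.23, edgeR adjusted p = 0.0102), and 2 called lower in asGM1-positive cells (6.25% of all genes called). Between the Panc02 gates edgeR called 0 of these 80. An unadjusted p under 0.05 was found there for 8 of them, and for 2040 of the 20411 genes tested. In the interaction edgeR also called 0 of the 80, where 18 of them and 3030 of the 20411 genes had an unadjusted p under 0.05.

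Pgam2 and Hk3, isoenzymes outside the list, were called in several comparisons. Of 21 further glycolysis genes 16 were tested. Between the Panc02 gates edgeR called 1 lower in asGM1-positive cells (6.25%, against 0.892% of all genes). Between the Flt3L Panc02 gates it called 2 higher and 1 lower (18.8%, against 8.59%). Between tumours it called 1 higher and 1 lower in asGM1-negative cells (12.5%, against 3.7%), and the same numbers in asGM1-positive cells (12.5%, against 6.25%). Pgam2, the muscle form of phosphoglycerate mutase, was 6.5 to 8.11 CPM in asGM1-negative cells of Flt3L Panc02 tumours, 1.51 to 1.72 CPM in those of Panc02 tumours and 0.408 to 0.83 CPM in asGM1-positive cells. It was lower in asGM1-positive cells in both tumour types (-1.82 ± 0.22 and -3.38 ± 0.23; edgeR adjusted p 0.00191 and 1.52e-05). Hk3, a hexokinase typical of myeloid cells, was 3.1 to 4.34 CPM in the Flt3L Panc02 asGM1-negative group and 9.42 to 10.9 CPM in its asGM1-positive counterpart (1.45 ± 0.26, edgeR adjusted p = 0.00611), and 9.4 to 26.7 CPM in the Panc02 libraries. It was lower in Flt3L Panc02 tumours in both gates (-1.68 ± 0.26 and -1.004 ± 0.25; edgeR adjusted p 0.00844 and 0.041). The macrophage and monocyte sum was 388.3 to 628.1 and 705.5 to 956.1 CPM in these 2 Flt3L Panc02 groups, and its part in the Hk3 result was not tested. Of 38 tested further HIF pathway genes, 3 (7.89%, against 8.59% of all genes) were called between the gates of Flt3L Panc02 tumours, namely 2 higher and 1 lower in the asGM1-positive gate, P4hb (0.43 ± 0.10), Hmox1 (1.07 ± 0.28) and Rora (-1.29 ± 0.17; edgeR adjusted p 0.0226, 0.0342 and 0.00142). Between tumours 1 was higher and 2 lower in asGM1-negative cells (7.89%, against 3.7%), and in asGM1-positive cells 2 were higher and 4 lower (15.8%, against 6.25%), with Epas1, the alpha subunit of HIF2, at -1.997 ± 0.42 (edgeR adjusted p = 0.0211).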

How the data were processed

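RNA from 12 libraries of sorted CD45.2+ CD8+ cells was sequenced. Per the labels' protocols, RNA was taken up in TRIzol, and TruSeq mRNA and SMARTer low input reagents are both named. Strand is not given, so reads of antisense partners cannot be separated. HISAT2, StringTie and mm39 are named per the submitters' processing notes. No version or annotation was given in the sources used here. In 1 table, the authors deposited expected counts, that is, estimated counts per gene, as whole numbers. Small values peaked at steps of about 2.71 counts (2.67 to 2.75), taken as 1 fragment, and a floor of 3 fragments is 8.1 counts, at most 0.0901 CPM, for counting error only.

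Counts were analysed in R 4.3.3 with edgeR 4.0.16: TMM, filterByExpr by group, 1 quasi-likelihood model of the 4 group means, and Benjamini-Hochberg adjustment over 20411 genes, called under 0.05. SE is the unshrunk log2 fold change divided by the square root of F. Isoenzyme ratios added 0.1 CPM to each value and used a two-sided exact permutation test within strata. Levels per kb used merged exon lengths of GENCODE M21, an older annotation. Promoter windows came from RefSeq on GRCm38.p6. Each comparison was also run with DESeq2 1.42.0 (size factors, and its own test), upper quartile factors, no filter, a filter of 5 CPM in 3 libraries, limma 3.58.1 voom with quality weights, compared libraries only, a replicate block, counts divided by 2.71, and libraries left out. The edgeR step was tested on simulated data.

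Members and lists were chosen with earlier results of these data known. Described in full were members called in any comparison and Slc2a1, Slc2a3, Hk2, Ldha, Pkm, Gapdh, Hif1a and Slc7a5, and from linked lists up to 3 called genes per comparison by adjusted p. Replicate numbers come from the titles. In Panc02 tumours, deviations of same-numbered libraries from their group means correlated across genes (r 0.307 to 0.448 for the 3 pairs, -0.379 to 0.069 for other pairs), so numbers were taken to pair those libraries. The count of called genes in the list of pyruvate entry and the TCA cycle, and 1 gene of that list, are not reported here.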

Additional observations from a re-analysis of the deposited data

How the results depend on the processing

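Counts of called members depended on the setting, as did the share of all genes called, which is given as a percentage. In the Panc02 gate comparison (0 called, 0.892% of genes) DESeq2 called 1 (2.89%) and limma-voom 2 (4.07%). The fit without both Panc02 replicates 1 called 1 (0.512%), and fits with 1 library left out called 0 to 1. In the Flt3L Panc02 gate comparison (4 called, 8.59% of genes) upper quartile factors gave 2 (8.23%), no filter 1 (3.9%) and the strict filter 2 (12.8%). DESeq2 gave 7 (15.8%), compared libraries only 1 (5.81%), and left-out libraries 1 to 4. Between tumours in asGM1-negative cells (1 called, 3.7%) no filter gave 0 (1.25%), the strict filter 4 (8.1%), DESeq2 8 (10.9%) and limma-voom 15 (17.3%). Compared libraries only gave 4 (4.36%), divided counts 2 (5.95%), no Panc02 replicate 1 3 (2.3%), and left-out libraries 0 to 1. In asGM1-positive cells (1 called, 6.25%) the strict filter gave 2 (10.2%), DESeq2 5 (14.6%), limma-voom 7 (15.3%) and compared libraries only 0 (0.00538%). Divided counts gave 2 (8.69%), no Panc02 replicate 1 2 (1.92%), and left-out libraries 0 to 4. In the interaction (0 called, 0.367%) DESeq2 called 1 (4.23%) and limma-voom 2 (3.85%). Each isoenzyme factor had 0 ratios called, and 0 to 1 with 1 library left out. The cause was not tested.

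The replicate block gave 0, 11, 0, 4 and 1 called members, comparisons ordered as before. The 11 in Flt3L Panc02 tumours (10.3% of genes) were Bnip3, Ldhb, Pgam1, Gpi1, Mxi1, Eno1, Tpi1, Ldha, Aldoa, Pgk1 and Pkm. The 1 interaction was Pgk1 (edgeR adjusted p 0.0432, 0.999% of genes called). The 4 in asGM1-positive cells (7.3% of genes) were Vegfa, Ndrg1, Adm and Ddit4. The 0 between tumours in asGM1-negative cells stands against 3.61% of genes. Between the gates of Flt3L Panc02 tumours same-numbered libraries correlated at -0.002 to 0.403 and other pairs at -0.388 to 0.228. These ranges overlap and do not settle whether those libraries are pairs. Across tumour types same-numbered libraries correlated at -0.318 to 0.07 and other pairs at -0.198 to 0.299. The numbers thus gave no ground for pairing libraries across tumour types. Block results of the tumour comparisons, including the calls gained or lost, are therefore not a test with pairs. The block changed no call in Panc02 tumours.

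Of called members, Ldhb kept its Flt3L Panc02 gate call in each setting run. Pgk1, Pkm and Mxi1 lost theirs with no filter (edgeR adjusted p 0.0797, 0.0812 and 0.0572) and with compared libraries only. Pgk1 and Pkm also lost theirs with upper quartile factors (edgeR adjusted p 0.0754 and 0.0801) and the strict filter, and Pgk1 with limma-voom (adjusted p 0.0534). Vegfa lost its tumour call with compared libraries only (edgeR adjusted p 0.0507), a fit in which 0.00538% of all genes were called. Ldhb lost its tumour call with no filter (edgeR adjusted p 0.0781) and the block (0.0533).

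Signs were followed for 12 members (Slc2a1, Slc2a3, Hk2, Pgk1, Pkm, Gapdh, Ldha, Ldhb, Hif1a, Vegfa, Mxi1 and Slc7a5) and the 6 ratios, and among these no difference that was called in either fit changed sign. Those that did were (log2): Panc02 gate: Slc2a1 0.002 (limma-voom), Gapdh 0.018 (block), and with 1 library left out Slc2a1 -0.129 to 0.103, Gapdh -0.287 to 0.154, Pkm -0.178 to 0.023, Ldha -0.057 to 0.141 and Pgk1 -0.076 to 0.173. Flt3L Panc02 gate: Hif1a -0.004 (strict filter) and -0.037 (limma-voom), Gapdh -0.157 (limma-voom), and left out Slc2a1 -0.123 to 0.339, Slc2a3 -0.038 to 0.388, Gapdh -0.063 to 0.311, Hif1a -0.137 to 0.266 and Vegfa -0.53 to 0.006. Tumour, asGM1-positive: Pkm -0.01 (limma-voom) and -0.054 (no Panc02 replicate 1), and left out Slc2a1 -0.437 to 0.025, Pkm -0.063 to 0.141, Ldha -0.13 to 0.103 and Pgk1 -0.152 to 0.121. Interaction: Hk2 -0.015 (strict filter) and -0.04, Gapdh -0.048 and Slc7a5 -0.145 (limma-voom), Slc7a5 -0.174 (no Panc02 replicate 1), and left out Slc2a1 -0.113 to 0.348, Hk2 -0.178 to 0.276, Gapdh -0.065 to 0.376 and Slc7a5 -0.249 to 0.336. Ratios: Hk2/Hk1 gate -0.039 to 0.32, Pfkp/Pfkl tumour -0.086 to 0.009 and Slc16a3/Slc16a1 tumour -0.056 to 0.269.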
